A study of Mus musculus with 28 samples.

Results

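Sox17 and the SoxC, SoxD and SoxE genes were followed through mouse fibroblasts, the induced neural stem cells made from them, and cultured neural stem cells. The members were chosen by name: Sox17 of the SoxF group, Sox4 and Sox11 of SoxC, Sox5 and Sox6 of SoxD, and Sox8 and Sox9 of SoxE, 7 of the 17295 genes in the deposited expression table. All 7 were in the table, and all 7 passed the filter on low values, Sox17 only because of the induced lines in which it was high. Messenger RNA had been sequenced from 28 libraries, 2 for each of 14 groups.

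Induced neural stem cells (miNSC) made up 10 groups. Their fibroblasts had received the M2rtTA transactivator and doxycycline-inducible lentiviruses, with 1 μg/mL doxycycline for 18 days and colonies picked on day 20. Each cocktail contained F, which is eSox17FNV, an engineered form of Sox17, together with K and, in some cocktails, B or M. The labels do not say which genes B, K and M stand for. Embryonic fibroblasts (MEF) of ICR mice gave a BKF and a KF group, and those of Sox2-GFP reporter mice gave a BKF, a KF and a KMF group. Tail-tip fibroblasts of Sox2-GFP mice aged 1.0 year gave a BKF group, a KMF group and a 4F group, whose cocktail held B, K, M and F and whose libraries were taken at passage 8 and at passage 18. Ear fibroblasts of Sox2-GFP mice aged 1.0 year gave a further 4F group. The groups without factors were all from Sox2-GFP mice: tail-tip fibroblasts at 1.0 and 2.5 years, skin fibroblasts at 2.5 years, and neural stem cells (NSC) at 2.5 years, 1 library at passage 2 and 1 at passage 5. No embryonic, ear or ICR fibroblasts were among the groups. A miNSC group may descend from a single picked colony and the labels do not say that its libraries were separate cultures, so the p-values reflect no more than the scatter of these libraries, some of which may be technical.

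SOX proteins are transcription factors that bind DNA through an HMG box, and they are sorted into lettered groups by the sequence of that box. Sox17 is best known from early endoderm and from blood vessel endothelium, not from neural tissue. SoxC proteins act in neural progenitors and young neurons. SoxD proteins lack a transactivation domain of their own and work beside other factors, among them the SoxE proteins in cartilage, glia and neural progenitors. SoxE proteins specify glia: Sox9 acts in radial glia and astrocytes, and Sox8 together with Sox10 in the oligodendrocyte lineage.

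The likeness of the members at the nucleotide level bears on how far their reads can be told apart, so the first 60 bases of the compared HMG-box coding region are shown. They were taken from GENCODE M21 transcripts on GRCm38 (mm10), and capitals mark the bases that are identical in all 7 genes.
Sox17: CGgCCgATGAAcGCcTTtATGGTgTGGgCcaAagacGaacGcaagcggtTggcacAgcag
Sox4: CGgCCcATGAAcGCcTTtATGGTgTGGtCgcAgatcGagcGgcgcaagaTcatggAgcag
Sox11: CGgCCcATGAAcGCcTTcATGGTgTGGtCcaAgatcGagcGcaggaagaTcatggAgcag
Sox5: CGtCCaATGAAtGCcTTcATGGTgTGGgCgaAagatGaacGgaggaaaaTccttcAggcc
Sox6: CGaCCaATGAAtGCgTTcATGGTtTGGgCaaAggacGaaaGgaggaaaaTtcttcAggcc
Sox8: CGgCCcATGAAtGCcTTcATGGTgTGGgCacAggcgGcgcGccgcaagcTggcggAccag
Sox9: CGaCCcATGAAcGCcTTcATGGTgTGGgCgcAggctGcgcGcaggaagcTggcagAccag
In this stretch 27 of 60 bases (45%) were identical in all 7 genes. Over the 210 bases compared, Sox4 and Sox11 shared 91% of bases, Sox8 and Sox9 86.2%, and Sox5 and Sox6 82.4%. Sox17 was closest to Sox9, at 76.7%. The longest run shared by the coding sequences of Sox4 and Sox11 was 48 bases, and no other pair shared a run longer than 24 bases. How reads common to a pair were assigned is not given in the sources used here, so the split between Sox4 and Sox11 is less certain than the other values.

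On GRCm38, Sox17 lies on chromosome 1 from 4490931 to 4497354 (5 exons), Sox4 on chromosome 13 from 28948919 to 28953713 (1 exon) and Sox11 on chromosome 12 from 27334264 to 27342574 (1 exon). Sox5 spans chromosome 6 from 143828425 to 144781977 (15 exons) and Sox6 chromosome 7 from 115470872 to 116038796 (17 exons). Sox8 lies on chromosome 17 from 25565892 to 25570686 (3 exons) and Sox9 on chromosome 11 from 112782224 to 112787760 (3 exons). Exon numbers are those of the transcript whose coding sequence was read. RefSeq promoter windows of 300 bases, 250 before and 50 after a start, were at hand for 5 of the 7 members, without Sox17 and Sox9. The windows of Sox4 (GRCm38.p6, chr13:28953650-28953949, minus strand) and Sox8 (chr17:25570637-25570936, minus strand) are shown as examples. For both genes every miNSC library lay above every fibroblast library, as it did for Sox11 and Sox6, whose windows are not shown. Capitals mark CCAAT or its reverse complement ATTGG.
Sox4: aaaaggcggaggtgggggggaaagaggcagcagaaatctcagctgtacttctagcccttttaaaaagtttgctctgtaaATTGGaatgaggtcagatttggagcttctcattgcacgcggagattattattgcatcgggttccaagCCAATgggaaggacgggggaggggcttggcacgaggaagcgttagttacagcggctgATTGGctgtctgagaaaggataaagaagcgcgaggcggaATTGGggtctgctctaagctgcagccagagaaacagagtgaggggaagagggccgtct
Sox8: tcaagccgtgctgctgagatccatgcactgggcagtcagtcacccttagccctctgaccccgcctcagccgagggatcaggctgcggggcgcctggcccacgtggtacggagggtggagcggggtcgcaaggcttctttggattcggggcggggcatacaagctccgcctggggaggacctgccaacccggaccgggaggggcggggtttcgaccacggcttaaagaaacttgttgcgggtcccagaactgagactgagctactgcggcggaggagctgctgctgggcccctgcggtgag
The Sox4 window held 4 such matches and the Sox8 window held 0. Of the windows not shown, that of Sox11 held 1, that of Sox5 held 0 and those of Sox6 held 0 to 4. Of 32851 windows of the same length, 37.4% held at least 1 match and 11.7% held 2 or more.

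The values compared were the submitters' normalised expression values, called values below, whose sequencing depth is unknown. Library totals lay between 15563679 and 15571626. Every library held the same 1317 distinct values, and each value of a member was shared by at least 4 genes, so equal values in both libraries of a group do not mean that the measurement had no error. The NSC pair stood apart. Its libraries differed by a median of 0.373 in absolute log2 value and 3141 tested genes were more than 2-fold apart, against medians of 0.0754 to 0.207 and 787 to 1201 genes in the other groups. Log2 fold changes are differences of mean log2(value + 1) ± SE from limma, which understate changes of low genes, and adjusted p-values cover all 16275 tested genes.

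As a check of the labels, the 9 neural stem cell markers all rose from fibroblasts to miNSC and the 10 fibroblast markers all fell. Of the 9, 4 were listed at 0 in every fibroblast library and could only rise. Over all tested genes 42.8% were called higher, and 5484 of 16275 were called lower. Marker sums were 223 to 343 in fibroblast, 42254 to 112612 in miNSC and 43127 to 109700 in NSC libraries for the first list. For the fibroblast list they were 139112 to 207560, 121 to 2343 and 657 to 1334. Among defining markers, Sox2 was listed at 0 in every fibroblast library, and Pdgfrb was at a mean of 0.15 in miNSC.

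Sox4, Sox11, Sox5, Sox6 and Sox9, the 5 members that averaged at least 10 in fibroblasts as well, rose from fibroblasts to miNSC. All 5 were called higher, against 42.8% of tested genes called higher and 76.5% called in either direction. Sox17 and Sox8 were near 0 in fibroblasts and entered the test only through the groups in which they were high, so their differences from fibroblasts are given as values without a test. For Sox4, Sox11, Sox6, Sox8 and Sox9 every miNSC library lay above every fibroblast library; over all tested genes 31.9% had no overlap, in either direction. The fibroblast and miNSC ranges of Sox5 and Sox17 overlapped. In bulk RNA, fewer cells expressing a gene and less RNA per cell cannot be told apart. In the tail-tip comparison, which sets 4 miNSC groups from 1.0-year tail tips against fibroblasts of that tissue and age, the same 5 were called higher, against 36.7% of tested genes called higher and 66.0% called at all. Counting every group mean as 1 sample, Sox11, Sox6 and Sox9 passed and Sox4 and Sox5 did not (adjusted p = 0.102 and 0.0626). NSC had the same 5 called higher than fibroblasts, against 34.9% and 65.9%, and Sox17 was listed at 0 in NSC. These comparisons share libraries, so they are given side by side and not as separate support.

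**Figure D1:**
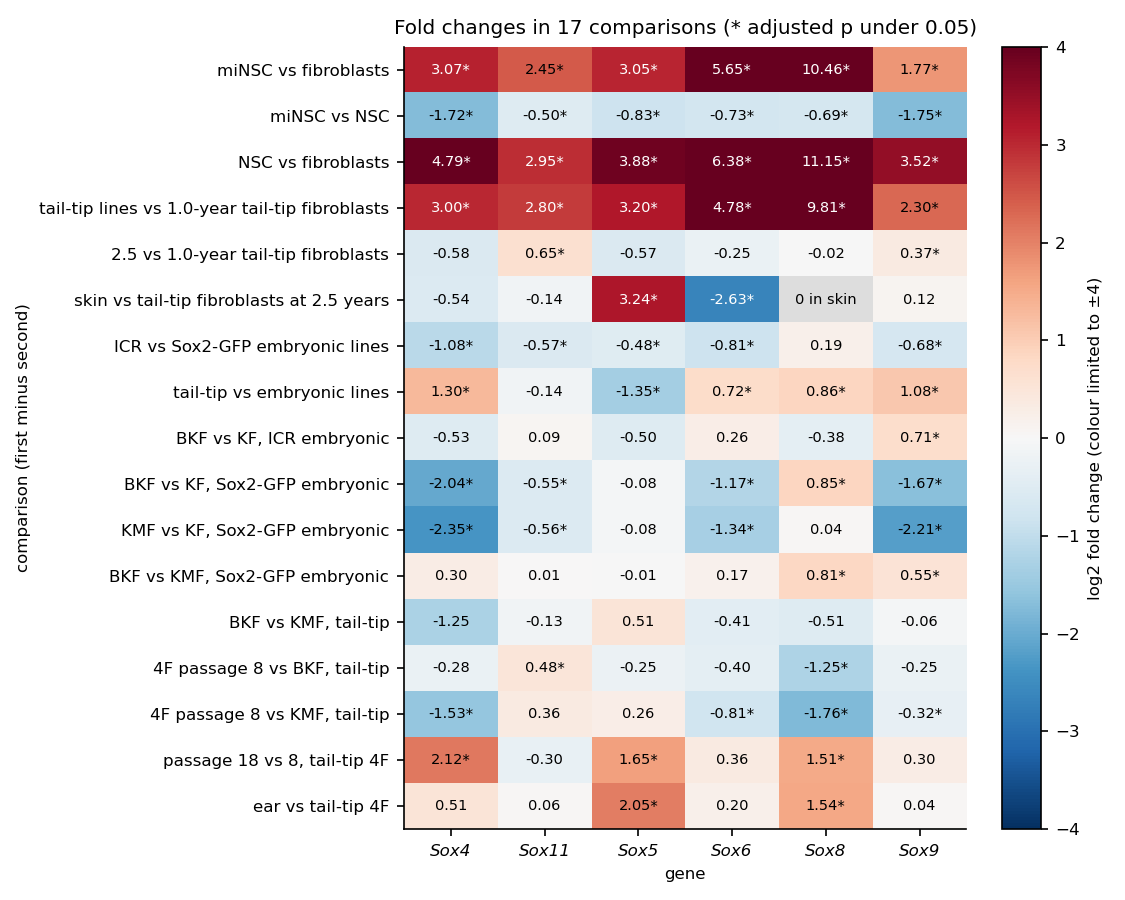
Log2 fold changes of the 6 members other than Sox17 (columns) in each comparison (rows, first named minus second); colour shows the size, an asterisk an adjusted p under 0.05 (not to be read for Sox8 against fibroblasts, where it entered the test through the other side), and the grey cell a comparison in which Sox8 was listed at 0 in skin. The rows against fibroblasts hold only positive values, from 1.77 for Sox9 to 11.15 for Sox8, whereas the comparisons among lines hold both signs.

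Sox17 was the member with the least even expression. Its values were 384 and 254 in the tail-tip BKF libraries, 222 and 262 in ear 4F, 115 and 166 in Sox2-GFP embryonic KF, and 62 and 29 in tail-tip KMF. Sox2-GFP embryonic BKF had 12 and 6, and Sox2-GFP embryonic KMF 4 and 8. It was listed at 0 in both libraries of ICR BKF, ICR KF, tail-tip 4F at passage 8 and tail-tip 4F at passage 18. NSC, 2.5-year tail-tip and skin fibroblasts were also listed at 0, and 1.0-year tail-tip fibroblasts had 0 and 1. Thus 8 of 20 miNSC libraries were listed at 0, and 6 of the 10 groups averaged 10 or less. Every miNSC group had received F in an inducible virus, and the labels do not say whether doxycycline was present at harvest. Tail-tip BKF and ear 4F, first and second in the order of levels, overlapped. The step from ear 4F down to Sox2-GFP embryonic KF, and that from there to tail-tip KMF, did not overlap.

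The table has 1 row for Sox17, so reads from the chromosomal gene and from an introduced eSox17FNV cannot be told apart. The mean over all miNSC libraries was 76.2 ± 117 (SD, n = 20) and in fibroblasts 0.167 ± 0.408 (SD, n = 6). NSC were listed at 0. Genes of endoderm and endothelium, the tissues in which Sox17 is best known, were counted as lists. Of 12 early endoderm genes, 7 were in the table and 5 were tested, of which 4 were called higher and 1 lower in miNSC than in fibroblasts. Over all tested genes 42.8% were called higher. The endoderm list summed to 32 to 1123 in fibroblasts and 128 to 540 in miNSC. Skin fibroblasts had 1123 and 1081, and tail-tip BKF, the group highest for Sox17, had 146 and 130. Counts for some lists, here and below, include genes listed at 0 in every fibroblast library, which could only be called higher. Foxa1, a pioneer factor of endoderm, was listed at 0 in fibroblasts and averaged 25.2 ± 26.3 (SD, n = 20) in miNSC. Gata4, a zinc finger factor of heart and endoderm, averaged 35.2 ± 56.4 in miNSC and 0.5 ± 0.837 in fibroblasts, with overlap. Of 11 endothelial genes, 6 were in the table and 4 were tested, with 0 higher and 2 lower. Tek, the angiopoietin receptor, fell by 1.46 ± 0.13, and Pecam1, an endothelial adhesion molecule, fell by 1.85 ± 0.54 on the log2 scale. The summed endothelial list was 235 to 595 in fibroblasts and 151 to 343 in miNSC, and the part of such cells in the Sox17 values was not tested.

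Sox17 entered the test only through lines in which it was high, so its differences among lines are given as values without a test. Where it passed the threshold it stays in the counts of members called below, and that part of a count is not a result. Between cocktails at 1 origin, Sox17 stood apart in some comparisons and not in others. In ICR embryonic lines it was listed at 0 in both BKF and both KF libraries. In tail-tip lines BKF was above KMF by 2.85 ± 0.42, although its place in the count was lost when the fit held only the groups compared. In Sox2-GFP embryonic lines both BKF (-3.87 ± 0.42) and KMF (-4.37 ± 0.42) were below KF. BKF and KMF of that origin differed by 0.51 ± 0.42, with overlapping libraries. Across origins, tail-tip BKF and KMF lines together were above their embryonic counterparts by 3.87 ± 0.29. Within 4F, both passages of the tail-tip line were listed at 0 and the ear line was at 222 and 262.

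Klf4, Myc, Pou3f2 and Pou3f4, transcription factors used in reprogramming mixtures, are given beside Sox17 for context. Klf4 was highest among miNSC in Sox2-GFP embryonic KF, at 3366 and 3398, and lowest in ICR BKF, at 24 and 28. Tail-tip BKF and ear 4F, the groups highest for Sox17, had Klf4 at 190 and 136, and at 424 and 426. Myc was 1400 and 1282 in tail-tip BKF and 3857 and 3733 in Sox2-GFP embryonic KF. Pou3f4 was listed at 0 in both ICR KF libraries and was between 387 and 1539 in every other miNSC library. Pou3f2 ranged from 481 to 1526 over the miNSC libraries and was listed at 0 in fibroblasts. High Sox17 and high Klf4 thus occurred together in Sox2-GFP embryonic KF and apart in tail-tip BKF.

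**Figure D2:**
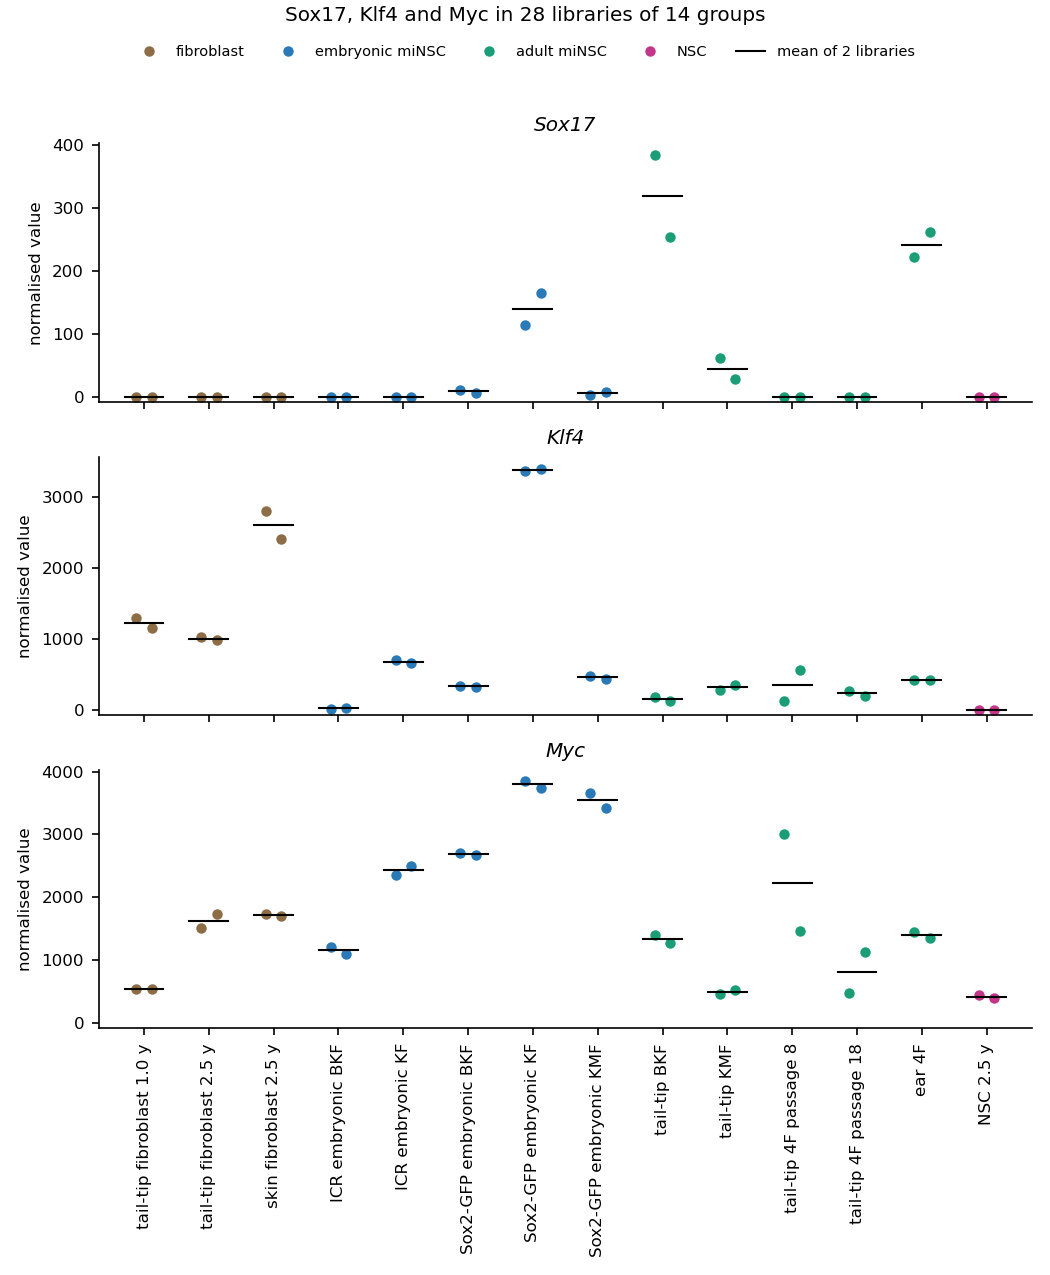
Normalised values of Sox17, Klf4 and Myc (linear axes) in each library, with 14 groups along the horizontal axis; points are libraries coloured by cell class and bars are means of 2 libraries. The mean of Sox17 stands above 10 in tail-tip BKF, ear 4F, Sox2-GFP embryonic KF and tail-tip KMF. Its highest library reaches 384, and 4 other miNSC groups lie at 0.

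Of the SoxC genes, Sox4, a factor of neural progenitors and young neurons, was 850 to 1892 in fibroblasts and 5090 to 32716 in miNSC. Its values were 32716 in both passage 18 tail-tip 4F libraries, 24590 and 28063 in Sox2-GFP embryonic KF, and 21808 in both tail-tip KMF libraries. The remaining miNSC groups were lower: ear 4F had 11652 and 9950, tail-tip BKF 9950 and 8418, passage 8 tail-tip 4F 7289 and 7802, and ICR KF 7518 and 7154. Sox2-GFP embryonic BKF had 6168 and 6576, Sox2-GFP embryonic KMF 5163 in both, and ICR BKF 5090 in both. The 3 highest miNSC groups did not overlap each other or ear 4F. The NSC libraries were 7.12-fold apart, with 92914 at passage 2, the value at which the 10 highest genes of each library are tied, and 13046 at passage 5.

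From fibroblasts to miNSC Sox4 rose by 3.07 ± 0.24 (adjusted p = 3.91e-09). It was lower in miNSC than in NSC by 1.72 ± 0.38 on the log2 scale (fold change -1.72, adjusted p = 0.00195), but that size rests on 1 library. Without the passage 2 library the difference was -0.31 (adjusted p = 0.0131), and without the passage 5 library it was -3.14. The same NSC pair sets the spread used for Sox4 in every comparison. With the NSC libraries left out, Sox4 differences among lines that had missed the threshold passed it, as given with each below; several also passed in fits of only the groups compared.

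Sox11, the other SoxC gene and which promotes neuronal differentiation, had the smallest spread of the 7 members among miNSC group means. The highest group mean, 3888 in Sox2-GFP embryonic KF, was 1.85-fold the lowest, 2099 in ICR KF. All 20 miNSC libraries lay between 2068 and 3953, and all 6 fibroblast libraries between 358 and 636. Sox2-GFP embryonic KF had 3953 and 3822, ear 4F 3398 and 3303, and passage 8 tail-tip 4F 3280 and 3166. ICR BKF had 2191 and 2286 and ICR KF 2130 and 2068, below every Sox2-GFP embryonic library. NSC had 3089 and 4756. Sox11 rose from fibroblasts to miNSC by 2.45 ± 0.07 (adjusted p = 1.06e-14). It was lower in miNSC than in NSC by a fold change of -0.50 ± 0.12 (adjusted p = 0.00293), and the call was lost without the passage 5 NSC library (-0.19, adjusted p = 0.199); without the passage 2 library it was -0.81.

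The neuronal list held 12 genes beside Sox4 and Sox11, with 11 tested, of which 9 were called higher and 2 lower in miNSC than in fibroblasts (median 4.95), where 42.8% of all tested genes were called higher. The 2 lower ones, named after their values were seen, were Stmn2 and Tubb3, both proteins of neuronal microtubules, which averaged 3.4 and 315 in miNSC and 195 and 931 in fibroblasts. Dcx, a microtubule protein of migrating neurons, and Neurod1, a factor of neuronal differentiation, were listed at 0 in every fibroblast library. They averaged 461 ± 200.4 and 192 ± 88.6 (SD, n = 20) in miNSC. Map2, a dendritic microtubule protein, rose by 7.59 ± 0.16. The list sum was 1862 to 4530 in fibroblasts, 26832 to 41314 in miNSC and 44978 to 100198 in NSC.

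**Figure D3:**
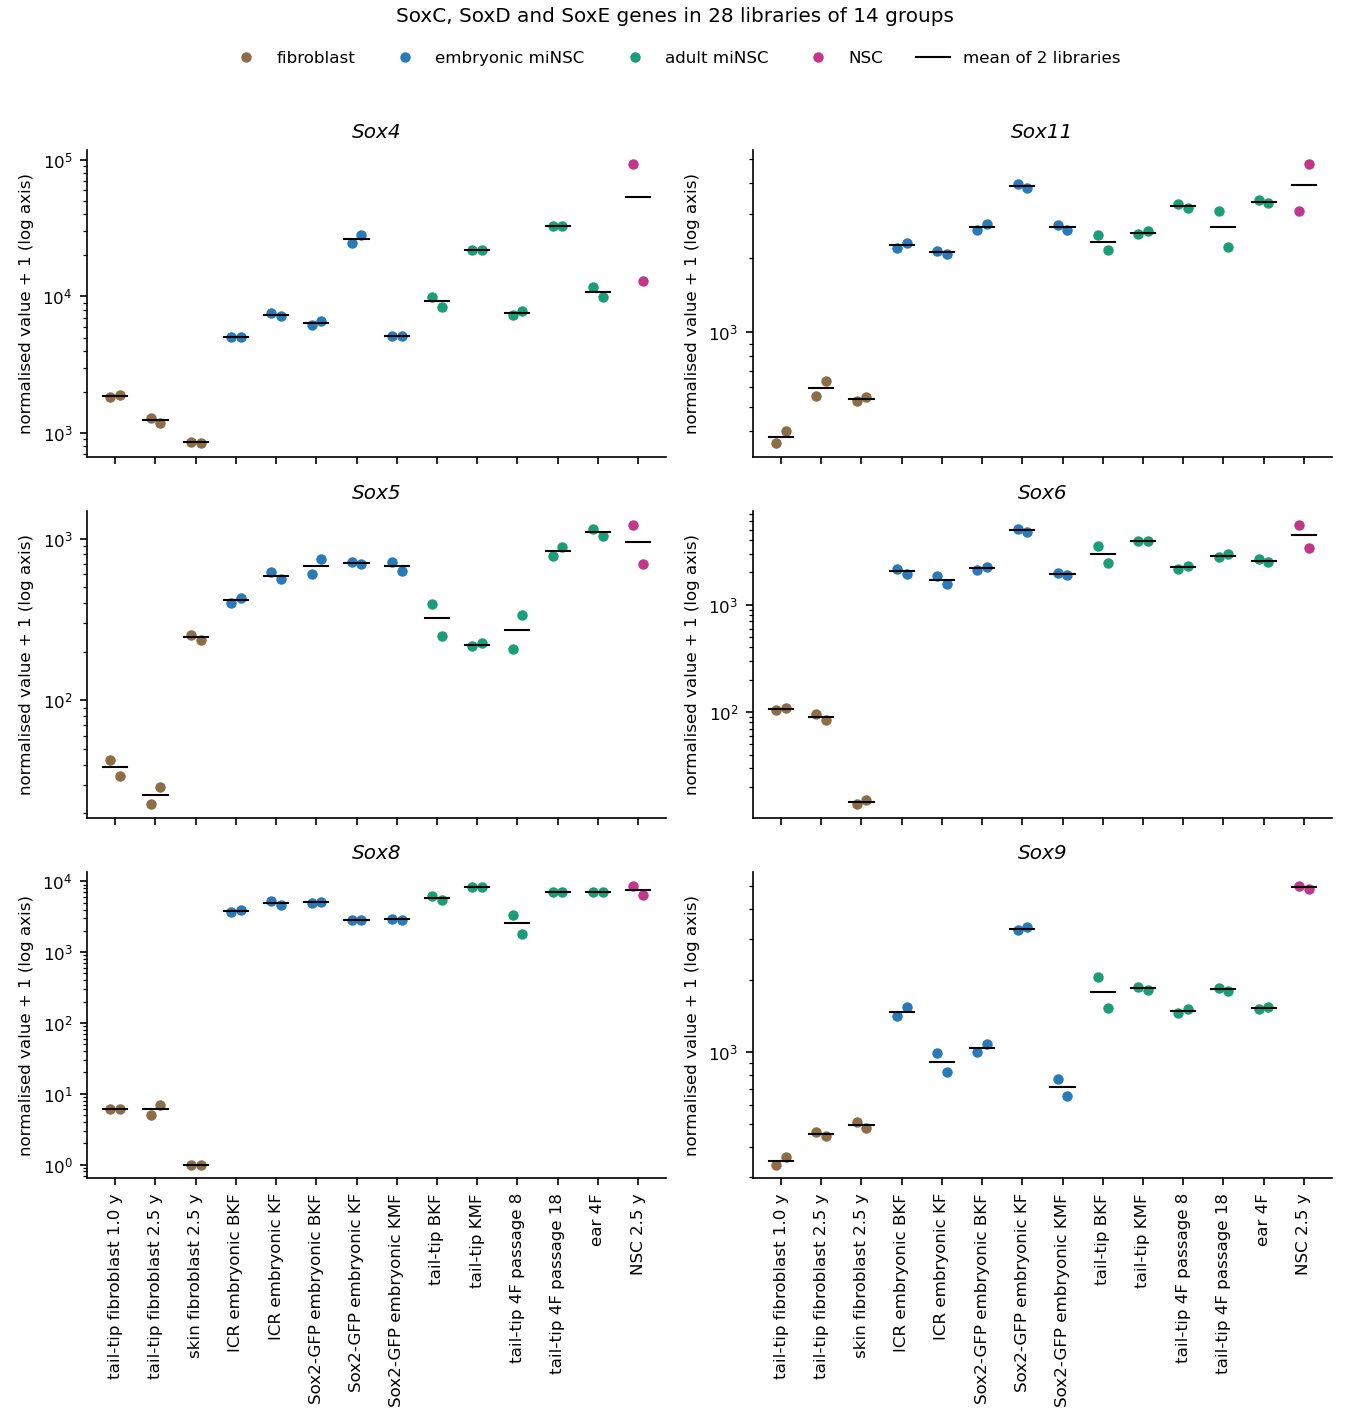
Normalised values + 1 on log axes for the 6 members other than Sox17, in each library; the 14 groups run along the horizontal axis, points are libraries coloured by cell class and bars are means of 2 libraries. Sox8 separates fibroblasts (0 to 6) from all other libraries (1814 or more), and Sox5 in skin fibroblasts (254 and 234) lies within the range of the miNSC lines.

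Sox5, a SoxD gene, was the member besides Sox17 whose fibroblast and miNSC ranges overlapped. Skin fibroblasts had 254 and 234, against 42 and 33 in 1.0-year and 22 and 28 in 2.5-year tail-tip fibroblasts. Among miNSC the highest were ear 4F at 1150 and 1042 and passage 18 tail-tip 4F at 776 and 886. Sox2-GFP embryonic lines were alike, with 720 and 696 in KF, 718 and 628 in KMF, and 601 and 744 in BKF. ICR KF had 618 and 558 and ICR BKF 399 and 429. The lowest were tail-tip BKF at 392 and 250, passage 8 tail-tip 4F at 206 and 336 and tail-tip KMF at 216 and 224. Group means spanned 4.98-fold, and the ranges of tail-tip BKF and of passage 8 tail-tip 4F overlapped that of skin fibroblasts. NSC had 1212 and 693. The rise from fibroblasts to miNSC was 3.05 ± 0.12 (adjusted p = 4.02e-13), and that from 1.0-year tail tips to their lines, without overlap, was 3.20 ± 0.20 (adjusted p = 5.32e-10). Against NSC the change was -0.83 ± 0.19 (adjusted p = 0.00252), and without the passage 2 NSC library it was -0.43 and no longer passed (adjusted p = 0.175).

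Sox6, the second SoxD gene, rose more evenly. It was 104 and 108 in 1.0-year tail-tip, 94 and 84 in 2.5-year tail-tip and 13 and 14 in skin fibroblasts. Sox2-GFP embryonic KF had 5088 and 4756, tail-tip KMF 3952 and 3888 and tail-tip BKF 3528 and 2470. Passage 18 tail-tip 4F had 2784 and 2942, ear 4F 2659 and 2488, and passage 8 tail-tip 4F 2166 and 2304. Sox2-GFP embryonic BKF had 2118 and 2264, ICR BKF 2140 and 1951, Sox2-GFP embryonic KMF 1994 and 1902, and ICR KF 1862 and 1566. The Sox2-GFP embryonic KF group overlapped NSC, at 5539 and 3366, and the other end of the order, from passage 8 tail-tip 4F to Sox2-GFP embryonic KMF, was a run of overlapping groups. Sox6 rose by 5.65 ± 0.08 from fibroblasts to miNSC (adjusted p = 7.68e-19). Against NSC it was lower, with a fold change of -0.73 ± 0.13 (adjusted p = 3.40e-04), or -0.37 (adjusted p = 0.0358) without the passage 2 library.

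Cartilage genes, on which SoxD proteins work together with Sox9, were 14 in the list, 11 of them tested. In miNSC 6 were called higher and 4 lower than in fibroblasts, with a median of 0.59. Over all tested genes 42.8% were called higher, and 5484 of 16275 were called lower. Comp and Prg4, matrix and lubricating proteins of joints, fell, Comp being listed at 0 in all miNSC libraries and Prg4 changing by -5.32 ± 0.11. Col9a1 and Col9a3, chains of a cartilage collagen, rose by 4.51 ± 0.15 and 5.09 ± 0.18, from means of 0.167 and 2.17 to 25.5 ± 7.01 and 197 ± 216 (SD, n = 20). The list sum was 2473 to 20130 in fibroblasts and 2252 to 3620 in miNSC. Skin fibroblasts, at 2473 and 2502, lay within the miNSC range, and the higher sums were those of tail-tip fibroblasts.

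Sox8, a SoxE gene of the oligodendrocyte lineage, had the largest fold change of the 7 members between fibroblasts and miNSC. It was 5 in both 1.0-year tail-tip libraries, 4 and 6 in 2.5-year tail-tip libraries and listed at 0 in skin fibroblasts. Tail-tip KMF had 8217 and 8418, ear 4F 7154 in both, passage 18 tail-tip 4F 6988 in both, and tail-tip BKF 6168 and 5540. Sox2-GFP embryonic BKF had 5028 and 5163, ICR KF 5322 and 4570, and ICR BKF 3668 and 3924. Sox2-GFP embryonic KMF had 2943 and 2855, Sox2-GFP embryonic KF 2816 and 2835, and passage 8 tail-tip 4F 3336 and 1814. NSC, at 8658 and 6468, overlapped tail-tip KMF, ear 4F and passage 18 tail-tip 4F. The log2 fold change over fibroblasts was 10.46 ± 0.10, given without a test. Against NSC, Sox8 was lower by a fold change of -0.69 ± 0.15 (adjusted p = 0.00185), a call lost without the passage 2 NSC library (-0.48, adjusted p = 0.0871).

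Sox9, the SoxE gene of radial glia and astrocytes, set NSC apart from every line. NSC had 4989 and 4838. Sox2-GFP embryonic KF came next, at 3253 and 3336, and all 20 miNSC libraries lay below both NSC libraries. Tail-tip BKF had 2068 and 1526, tail-tip KMF 1882 and 1829, passage 18 tail-tip 4F 1854 and 1814, ear 4F 1520 and 1543, and passage 8 tail-tip 4F 1458 and 1520. The tail-tip and ear groups formed a run of overlapping neighbours down to ICR BKF, at 1418 and 1543. Sox2-GFP embryonic BKF had 998 and 1079, ICR KF 996 and 823, and Sox2-GFP embryonic KMF 771 and 654. Group means in miNSC were 14.5 to 67.1% of the NSC mean. Fibroblasts were not without Sox9, with 337 and 363, 460 and 446, and 507 and 478 in 1.0-year tail-tip, 2.5-year tail-tip and skin cells. Sox9 was higher in miNSC than in fibroblasts by 1.77 ± 0.05 (adjusted p = 1.02e-14) and lower than in NSC (fold change -1.75 ± 0.09, adjusted p = 2.04e-10).

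Against NSC, then, the 6 members other than Sox17 were called lower in miNSC. Over all tested genes 40.6% were called, 19.7% lower. Sox9 was the 1 member without overlap between the sides, and 8.06% of tested genes had none. Sox17, listed at 0 in NSC, is given by its values alone. With the mean of each group counted as 1 sample, which leaves NSC with 1 value, none of the 6 passed (adjusted p from 0.298 for Sox9 to 0.752 for Sox5).

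Lists of genes that act beside the SoxE members held genes of both directions, to be read against the 42.8% of all tested genes called higher. Of 13 astroglial genes 12 were tested, and 9 were called higher and 2 lower than in fibroblasts (median 5.37). The 2 lower ones, Aldh1l1, a folate enzyme of astrocytes, and Nfix, a relative of Nfia, were named after their values were seen and changed by -1.32 ± 0.11 and -0.38 ± 0.06. Nfib and Nfia, nuclear factors of gliogenesis, rose by 4.04 ± 0.04 and 3.29 ± 0.05, and Slc1a3, a glutamate transporter, by 5.92 ± 0.12. Aqp4, the water channel of astrocyte endfeet, was listed at 0 in fibroblasts and averaged 666 ± 885 (SD, n = 20) in miNSC. The astroglial sum was 63111 to 137743 in miNSC and 122194 to 163953 in NSC. Of 12 oligodendrocyte lineage genes 10 were tested, with 6 higher and 3 lower (median 1.62). The 3 lower ones were Pdgfra and, named after their values were seen, Myrf, a myelin gene regulator, and Cspg4, a proteoglycan of precursors and pericytes; Myrf averaged 13.4 in miNSC and 145 in fibroblasts, and Cspg4, lower only on the log2 scale, 271 and 176. Olig1 and Olig2, factors of the lineage, were listed at 0 in fibroblasts. Pdgfra, a receptor of oligodendrocyte precursors that fibroblasts also carry, fell by 5.02 ± 0.11 on the log2 scale, and Cnp, a myelin enzyme, rose by 2.99 ± 0.08. Sox10, the third SoxE gene, was 0 to 40 in miNSC, 5 and 38 in NSC and 0 to 2 in fibroblasts.

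The remaining Sox genes put the members in their family. Of 13 others listed, 8 were in the table and 6 were tested. Sox12 and Sox13, which were present in fibroblasts as well, were called higher in miNSC, against 42.8% of tested genes called higher. The SoxB genes Sox1, Sox2, Sox3 and Sox21, which mark neural progenitors, were listed at 0 in every fibroblast library. They entered the test only through the other groups and are given as values without a test. Sox2 was 969 to 2854 in miNSC. Sox1 was the most uneven of them, from 0 to 554, and lay below NSC in all miNSC libraries. Sox12, the third SoxC gene, rose by 2.71 ± 0.05, and Sox13, the third SoxD gene, by 1.88 ± 0.13, both without overlap. Sox7, the other SoxF gene in the table, was 0 to 16 in miNSC, 2 to 15 in fibroblasts and 26 and 38 in NSC, and was not high where Sox17 was high: tail-tip BKF averaged 0 and ear 4F 6.

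The fibroblast groups were compared by age and by tissue. Between 2.5-year and 1.0-year tail-tip fibroblasts 2 of 7 members were called, against 11.0% of tested genes. Sox11 was higher at 2.5 years by 0.65 ± 0.16 (adjusted p = 0.0153), a call lost without 1.0-year replicate 1 (adjusted p = 0.124) or 2.5-year replicate 2 (adjusted p = 0.144). Sox9 was higher by 0.37 ± 0.11 (adjusted p = 0.0483), a call lost without any 1 of the 4 libraries (adjusted p = 0.106 to 0.256). A fit of only these groups called neither (adjusted p = 0.0673 and 0.0537) but called Sox4 (adjusted p = 0.0342), and Sox9 was also lost without a variance trend (0.0587) and with median-of-ratios scaling (0.078). Sox4, at -0.58, was not called, but passed without the NSC libraries in the fit (adjusted p = 2.62e-04). Between skin and tail-tip fibroblasts of 2.5 years 3 of 7 members were called, against 26.6%. Among the 3 is Sox8, which entered the test only through miNSC and NSC and is given by its values alone. Sox5 was higher in skin by 3.24 ± 0.26 (adjusted p = 7.85e-08), Sox6 changed by -2.63 ± 0.18 (adjusted p = 1.01e-08), and Sox8 was listed at 0 in skin and at 4 and 6 in tail tip. The SoxD genes thus differed in opposite directions between skin and tail tip. Sox4, at -0.54, also passed without the NSC libraries (adjusted p = 1.28e-04).

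Strain was compared in the BKF and KF lines of embryonic origin. Averaged over BKF and KF, ICR lines had 6 of 7 members called lower than Sox2-GFP lines and 0 higher, against 38.4% of tested genes called in either direction. Among the 6 is Sox17, which is given by its values alone. Sox17 was listed at 0 in all 4 ICR libraries and ranged from 6 to 166 in Sox2-GFP. Sox11 was lower without overlap (-0.57 ± 0.11, adjusted p = 8.58e-04). Sox6 (-0.81 ± 0.13, adjusted p = 9.81e-05), Sox9 (-0.68 ± 0.08, adjusted p = 9.36e-06), Sox4 (-1.08 ± 0.36, adjusted p = 0.0279) and Sox5 (-0.48 ± 0.18, adjusted p = 0.0487) were lower on average with overlapping libraries. The Sox9 average joins opposite directions. In BKF lines ICR was higher (1418 and 1543 against 998 and 1079), and in KF lines it was lower (996 and 823 against 3253 and 3336). Sox6 overlapped between the strains in BKF lines (2140 and 1951 against 2118 and 2264). Calls of Sox4 (adjusted p = 0.0531 to 0.074) and of Sox5 (0.0509 to 0.156) were lost without any 1 of the 8 libraries, of either strain. Sox5 was also lost without the filter on low values (adjusted p = 0.0509), without a variance trend (0.0531) and with median-of-ratios scaling (0.0569). Sox8 differed by 0.19 ± 0.14 (adjusted p = 0.342), and passed in a fit of only the groups compared (adjusted p = 0.0465). It too joined opposite directions, with ICR lower in BKF lines (3668 and 3924 against 5028 and 5163) and higher in KF lines (5322 and 4570 against 2816 and 2835). Counting every group mean as 1 sample, 0 members passed.

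The addition of B to KF was compared within each strain. In ICR lines BKF and KF differed in 1 of 7 members, against 13.1% of tested genes: Sox9 was higher in BKF, by 0.71 ± 0.11 (adjusted p = 4.14e-04; adjusted p = 0.0888 in a fit of only the groups compared). Sox4, at -0.53, passed without the NSC libraries (adjusted p = 3.07e-04). In Sox2-GFP lines 6 of 7 were called, against 37.7%, with Sox17 among them given by its values alone. Sox17, Sox4 (-2.04 ± 0.52, adjusted p = 0.00514), Sox9 (-1.67 ± 0.11, adjusted p = 4.02e-08), Sox6 (-1.17 ± 0.18, adjusted p = 8.63e-05) and Sox11 (-0.55 ± 0.16, adjusted p = 0.0125) were lower in BKF than in KF, and Sox8 was higher (0.85 ± 0.20, adjusted p = 0.00371). The Sox11 call was lost without BKF replicate 1 (adjusted p = 0.0731) or KF replicate 1 (adjusted p = 0.0663). The comparison of KMF with KF in Sox2-GFP lines, which shares the KF libraries, had 5 of 7 members called, against 39.1%, all lower in KMF. Sox17 is among the 5 and is given by its values alone. The others were Sox4 (-2.35 ± 0.52), Sox9 (-2.21 ± 0.11), Sox6 (-1.34 ± 0.18) and Sox11 (-0.56 ± 0.16). There the Sox11 call was lost without KF replicate 1 (adjusted p = 0.0603) or KMF replicate 2 (adjusted p = 0.0632). Within these lines Sox2-GFP embryonic KF was the high group for Sox17, Sox4, Sox11, Sox6 and Sox9, and for Klf4.

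Whether the difference between BKF and KF itself differed between strains was tested as an interaction, called for 5 of 7 members, against 32.1% of tested genes. The ICR difference exceeded the Sox2-GFP difference by 2.37 ± 0.16 for Sox9 (adjusted p = 2.80e-08), 1.43 ± 0.25 for Sox6 (adjusted p = 3.98e-04) and 0.64 ± 0.22 for Sox11 (adjusted p = 0.0397). For Sox8 it was smaller (-1.23 ± 0.29, adjusted p = 0.00385). The Sox17 value of 3.87 ± 0.59, counted among the 5 but given without a test, comes from Sox2-GFP lines alone, since ICR lines were listed at 0. Sox11 lost its call without any 1 of the 8 libraries (adjusted p = 0.0659 to 0.105). Sox4 had an interaction of 1.52 ± 0.73 that was not called (adjusted p = 0.13) and passed without the NSC libraries (adjusted p = 1.19e-07). Each cocktail is 1 group in each strain, so strain, cocktail and line cannot be told apart.

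**Figure D4:**
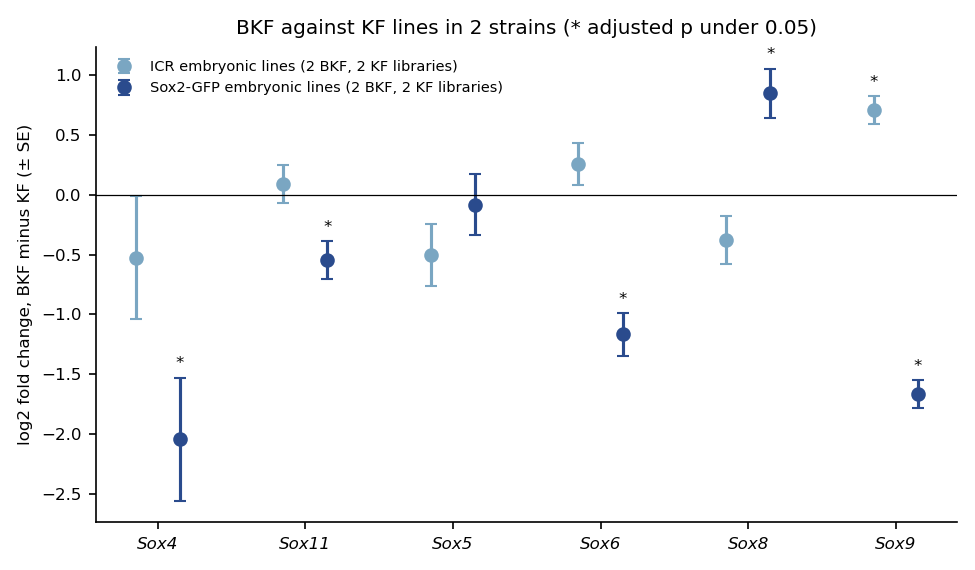
Log2 fold changes of BKF against KF lines ± SE for the 6 members other than Sox17, in ICR (light) and Sox2-GFP (dark) embryonic lines with 2 libraries in each group; asterisks mark an adjusted p under 0.05. Sox9 lies at 0.71 in ICR and -1.67 in Sox2-GFP lines, and Sox5 lies below 0 in both without a call.

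BKF and KMF lines could be compared at 2 origins. Among Sox2-GFP embryonic lines 2 of 7 members were called, against 10.3% of tested genes: Sox8 (0.81 ± 0.20, adjusted p = 0.0172) and Sox9 (0.55 ± 0.11, adjusted p = 0.00537) were higher in BKF. Sox8 lost its call without any 1 of the 4 libraries (adjusted p = 0.079 to 0.101), and Sox9 without BKF replicate 2 (adjusted p = 0.0603) or KMF replicate 2 (adjusted p = 0.0883). Sox9 was not called in a fit of only the groups compared (adjusted p = 0.094). Sox4, at 0.30, passed without the NSC libraries (adjusted p = 0.0218). Among tail-tip lines 1 of 7 was called, against 13.0%, and it was Sox17, which is given by its values alone. Sox4 there was 21808 in both KMF libraries and 9950 and 8418 in BKF, a change of -1.25 ± 0.52 (adjusted p = 0.132) that passed without the NSC libraries (adjusted p = 8.54e-08), as did Sox6, at -0.41 (adjusted p = 0.0285). Sox6 also passed without BKF replicate 1 (-0.67, adjusted p = 0.0261).

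The interaction of origin with these cocktails was called for 3 of 7 members, against 13.1% of tested genes. It was -1.32 ± 0.29 for Sox8 (adjusted p = 0.0065) and -0.61 ± 0.16 for Sox9 (adjusted p = 0.0208). Sox17, counted among the 3 but given without a test, had 2.34 ± 0.59. The place of Sox17 in that count, which is not a result, was lost without embryonic BKF replicate 2, embryonic KMF replicate 2 or tail-tip KMF replicate 2. Sox9 lost its call without embryonic BKF replicate 2 (adjusted p = 0.0835), embryonic KMF replicate 2 (adjusted p = 0.102), tail-tip BKF replicate 2 (-0.39, adjusted p = 0.0964), tail-tip KMF replicate 1 (adjusted p = 0.0663) or tail-tip KMF replicate 2 (adjusted p = 0.052). A fit of only the groups compared did not call Sox9 (adjusted p = 0.16), and Sox17 was not in its count. Sox6 reached -0.84 without tail-tip BKF replicate 1 and then passed (adjusted p = 0.0304). Sox4, at -1.56, and Sox6, at -0.58, passed without the NSC libraries (adjusted p = 3.76e-07 and 0.0288).

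Averaged over BKF and KMF, tail-tip lines differed from embryonic lines in 6 of 7 members, against 33.0% of tested genes. Among the 6 is Sox17, which is given by its values alone. Besides Sox17, Sox9 (1.08 ± 0.08, adjusted p = 7.84e-08), Sox8 (0.86 ± 0.14, adjusted p = 2.40e-04), Sox4 (1.30 ± 0.36, adjusted p = 0.0114) and Sox6 (0.72 ± 0.13, adjusted p = 3.22e-04) were higher in tail-tip lines. Sox5 was lower (-1.35 ± 0.18, adjusted p = 3.20e-05), and Sox11 differed by -0.14 ± 0.11 (adjusted p = 0.4). Counting every group mean as 1 sample, 2 against 2, 0 members passed (adjusted p from 0.272 for Sox5 to 0.44 for Sox8 among those 6). Donor age and tissue change together between these origins and cannot be told apart.

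The 4F line of tail-tip origin was compared at passage 8 with the 3-factor lines. Against BKF 3 of 7 members were called, with 26.1% of tested genes called. That count includes Sox17, given by its values alone. Sox17 was listed at 0 in 4F, Sox8 was lower (-1.25 ± 0.20, adjusted p = 3.14e-04) and Sox11 higher (0.48 ± 0.16, adjusted p = 0.0344). Sox8 fell to -0.81 without passage 8 replicate 2 and still passed (adjusted p = 0.0026), but not in a fit of only the groups compared (adjusted p = 0.173). That fit did not call Sox11 either (adjusted p = 0.106), and the Sox11 call was lost without passage 8 replicate 1 (adjusted p = 0.142), passage 8 replicate 2 (adjusted p = 0.0893) or BKF replicate 2 (adjusted p = 0.203). Without BKF replicate 2, Sox6 (-0.66, adjusted p = 0.0256) and Sox9 (-0.47, adjusted p = 0.0054) passed. Without the NSC libraries Sox4, at -0.28 (adjusted p = 0.0176), and Sox6, at -0.40 (adjusted p = 0.0205), passed.

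Against KMF 5 of 7 were called, with 35.5% of tested genes called, and all were lower in 4F. That count includes Sox17, given by its values alone. Sox17 was listed at 0 in 4F. Sox8 changed by -1.76 ± 0.20 (adjusted p = 6.58e-06) and Sox6 by -0.81 ± 0.18 (adjusted p = 0.00191). Sox4 changed by -1.53 ± 0.52 (adjusted p = 0.0295) and Sox9 by -0.32 ± 0.11 (adjusted p = 0.0412), calls that were lost without any 1 of the 4 libraries (adjusted p = 0.0834 to 0.116 for Sox4, 0.0853 to 0.171 for Sox9). Sox9 was also lost without a variance trend (adjusted p = 0.05) and with median-of-ratios scaling (0.0629), and Sox8 in a fit of only the groups compared (0.056). Sox11, at 0.36, passed without the NSC libraries (adjusted p = 0.0208) and in a fit of only the groups compared (0.0155).

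From the tail-tip 4F line, passage 8 and passage 18 libraries differed in 3 of 7 members, a share near the 35.1% of tested genes called. Sox4 (2.12 ± 0.52, adjusted p = 0.00445), Sox5 (1.65 ± 0.26, adjusted p = 1.47e-04) and Sox8 (1.51 ± 0.20, adjusted p = 4.25e-05) were higher at passage 18 than at passage 8, and Sox17 was listed at 0 at both. Sox11 changed by -0.30 ± 0.16 (adjusted p = 0.156), and it passed without passage 18 replicate 1 (-0.55, adjusted p = 0.022) and without the NSC libraries (adjusted p = 0.0447). Sox6, at 0.36, passed without the NSC libraries (adjusted p = 0.03). Sox9, at 0.30, lay at the threshold (adjusted p = 0.0528) and passed with a filter at a mean of 50 (0.0466) and in a fit of only the groups compared (0.0474). In a fit of only the groups compared, Sox5 (adjusted p = 0.0673) and Sox8 (adjusted p = 0.0973) were not called. A single line was sampled at both passages.

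Ear and tail-tip 4F lines, the latter at passage 8, differed in 3 of 7 members, against 27.2% of tested genes. That count includes Sox17, given by its values alone. Sox5 (2.05 ± 0.26, adjusted p = 2.43e-05) and Sox8 (1.54 ± 0.20, adjusted p = 4.03e-05) were higher in the ear line, where Sox17 was also present. A fit of only the groups compared did not call Sox8 (adjusted p = 0.0845). Both Sox5 and Sox8 were thus above passage 8 tail-tip 4F in the ear line and in passage 18 tail-tip 4F, 2 comparisons that share the passage 8 libraries. Sox4, at 0.51, passed without the NSC libraries (adjusted p = 2.18e-04). Passage of the ear line is not given in the labels.

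Among the 10 miNSC groups, group means of log2(value + 1) of Sox6 and Sox9 had a Pearson r of 0.882, Sox4 and Sox6 of 0.813, and Sox4 and Sox9 of 0.751. Sox11 and Sox8 had -0.345, and Sox5 lay between -0.125 and 0.302 with each of the other members. These are descriptions over groups that share strain, origin and the KF group in which several members were high. Over all 14 groups the step from fibroblasts raises most pairs, and Sox6 and Sox8 reached 0.977. SoxD partners of each other, Sox5 and Sox6, had -0.124 over miNSC groups, and the SoxE pair Sox8 and Sox9 0.0946.

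The genes most like each member by the same measure were sought over all tested genes and 14 groups. Sox17 was most like Gbe1 (r = 0.927), Pgm1 (0.89) and Slc37a4 (0.875), and over the 10 miNSC groups Picalm (0.952), Slc37a4 (0.932) and Rora (0.93). Sox4 was most like Zfp606 (0.982), Kmt2c (0.978) and Dclre1c (0.972), and Sox11 like Pou2f1 (0.983), Syt11 (0.98) and Syngr1 (0.979). For Sox5 they were Lypd1 (0.931), Zfp423 (0.925) and Egfr (0.924), and for Sox6 Natd1 (0.994), Satb1 (0.992) and Lrrn1 (0.992). Sox8 was most like Adcyap1r1 (0.993), Adgrg1 (0.993) and Adgrb2 (0.992). Sox9 was most like Asrgl1 (0.97), which averaged 140 in fibroblasts, 730 in miNSC and 4563 in NSC, then Elavl3 (0.964) and Btbd8 (0.962). Values of r for Sox6, Sox8 and Sox11 rest mainly on the gap between fibroblasts and all other groups.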

How the data were processed

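The deposited table of the authors holds 1 score per gene and library, whole numbers that the table calls normalised. RSEM, Bowtie2 2.0 and mm10 appear in the submitters' processing notes without their roles, and the normalisation is not given in the sources used here. Every library holds the same set of distinct values, so differences in total RNA output between libraries are not kept. Values were taken as log2(value + 1), genes averaging at least 10 were kept, and limma 3.58.1, run in R 4.3.3, fitted 1 linear model over the 14 groups with a variance trend. Contrasts of group means were adjusted by Benjamini-Hochberg over all tested genes, with a threshold of 0.05. Figures and levels were made with Python 3.11.15, pandas 2.3.3, numpy 2.4.6 and matplotlib 3.10.9. The pipeline was tested on simulated data.

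The members, gene lists and tests were chosen with earlier results of these data known. Genes named are the members, other Sox genes, for each list the 4 members with the smallest adjusted p for miNSC against fibroblasts, the 3 genes most correlated with each member (unnamed and predicted genes left out), and Klf4, Myc, Pou3f2 and Pou3f4. Not every gene picked by this rule is named in the text. Some listed genes were named after their values were seen, as marked there. Alternatives were the pseudocount, filters, variance settings, scaling, the libraries in the fit and the replicate block.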

Additional observations from a re-analysis of the deposited data

Results flagged for a closer look

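Of 41 sets of libraries examined for a library far from the others of its set, 1 had one. Sox17 was 1 in 1.0-year tail-tip fibroblast replicate 2 and 0 in the other 5 fibroblast libraries. A lone value above 0 among libraries at 0 is always flagged by this rule. The sets join libraries of different groups, so no chance rate is given.

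The difference between BKF and KF lines differed between ICR and Sox2-GFP embryonic origin, by the test of the interaction, for Sox9 (2.37), Sox6 (1.43), Sox11 (0.64) and Sox8 (-1.23), all as log2 differences of differences. Sox17 (3.87) was flagged too and is given without a test. Sox9 was higher in BKF than in KF in ICR lines (1418 and 1543 against 996 and 823) and lower in Sox2-GFP lines (998 and 1079 against 3253 and 3336).

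The difference between BKF and KMF lines differed between tail-tip and embryonic origin for Sox8 (-1.32) and Sox9 (-0.61). Sox17 (2.34) was flagged too and is given without a test. Sox8 was lower in BKF than in KMF in tail-tip lines (6168 and 5540 against 8217 and 8418) and higher in embryonic lines (5028 and 5163 against 2943 and 2855).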

How the results depend on the processing

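No direction of a called member reversed under any alternative run. Counts of members called moved by over 1.5 times as follows. For 2.5-year against 1.0-year tail-tip fibroblasts the count of 2 became 1 without a variance trend, with median-of-ratios scaling and in a fit of only the groups compared, where the 1 was Sox4. In fits of only the groups compared, BKF against KMF gave 1 for Sox2-GFP embryonic lines and 0 for tail-tip lines, and 4F at passage 8 against BKF gave 1.

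Replicate numbers did not pair the libraries: over 78 pairs of groups the deviations of same-numbered libraries had correlations of -0.0547 to 0.0709. The fit with a replicate block, which leaves out the NSC libraries, gave 2 members for BKF against KF in ICR lines, 3 for BKF against KMF in tail-tip lines, 5 for 4F at passage 8 against BKF, 5 for passage 18 against 8 and 5 for the interaction of origin and cocktail. The same counts of 2, 3, 5, 5 and 5 came from a fit without the NSC libraries and without the block, chosen after seeing the data. The members called were not all the same: for passage 18 against 8 the block gained Sox6 and Sox9 (adjusted p = 0.0253 and 0.0492), and the fit without it Sox6 and Sox11 (0.03 and 0.0447).

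Counting every group mean as 1 sample, chosen after seeing the data for these comparisons, counts were 0 for miNSC against NSC, 4 of all 7 for tail-tip lines against 1.0-year fibroblasts, 0 for ICR against Sox2-GFP and 0 for tail-tip against embryonic lines. Leaving out 1 library at a time gave 0 to 1 members for the fibroblast ages, 0 to 1 for BKF against KMF in embryonic lines, 1 to 2 for the same in tail-tip lines, 3 for 4F at passage 8 against KMF and 1 to 4 for the interaction of origin and cocktail. A lone library is then taken to vary like the other groups. Depth is unknown, so values near 0, as for Sox17 in several lines, have no detection limit.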
